A study of Mus musculus with 12 samples.

Results

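The accessible chromatin of thymic iNKT2 cells was compared with that of thymic iNKT17 cells in mice lacking *Hivep3*, and the subset contrast was then set beside the same contrast in C57BL/6 mice. The members are the regions of the deposited ATAC-seq table whose mean reached 5 on the linear scale (2 raised to the deposited log2 value) in *Hivep3*-/- iNKT2 or *Hivep3*-/- iNKT17 cells, which held for 58563 of the 63309 regions, each 500 bp long on mm10. Of these, 46692 reached that mean in both subsets, 5952 in iNKT2 cells alone and 5919 in iNKT17 cells alone. The lowest qualifying mean was 5.0025 and the highest that did not qualify was 4.9982. A region that qualified through 1 subset alone is low in the other by that choice, so the counts of such regions are given as a description.

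ATAC-seq marks open chromatin by letting a transposase insert adapters into it, and a value here is a log2 insertion level after the normalization of the authors. Each subset had 2 libraries in *Hivep3*-/- mice on the C57BL/6 background and 2 in C57BL/6 mice, all from the thymi of untreated animals of 8–9 weeks. The 2 iNKT1 libraries of each genotype were used to estimate the spread and to describe levels. The subsets were sorted from pooled thymi as iNKT1 (CD122+ ICOS-), iNKT2 (CD122- ICOS+ Izumo1r+ CD138-) and iNKT17 cells (CD122- ICOS+ Izumo1r- CD138+) and mixed for the transposition. They were then separated again by ICOS and CD138 only, which left CD122 and Izumo1r out of the last separation. That step told iNKT2 from iNKT17 cells by CD138. *Sdc1* (CD138), *Icos*, *Izumo1r* and *Il2rb* (CD122) therefore describe the sort and are not findings. The sample titles number single mice while the methods describe pools, so p-values measure the spread between libraries. The *Hivep3* promoter region (chromosome 4, 119733529–119734028) had values of 6.36 and 6.44 in *Hivep3*-/- iNKT2, 6.50 and 6.51 in *Hivep3*-/- iNKT17, 6.72 and 6.63 in C57BL/6 iNKT2 and 6.64 and 6.53 in C57BL/6 iNKT17 cells. Accessibility of that region does not test the knockout label.

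Invariant natural killer T (iNKT) cells are innate-like T cells that recognise lipids bound to CD1d, and they acquire effector programs in the thymus under the control of the zinc finger factor PLZF. iNKT2 cells are the main thymic source of IL-4 at steady state. iNKT17 cells make IL-17 under the influence of IL-23 and IL-1. HIVEP3 belongs to a family of large zinc finger proteins that bind κB-like sequences.

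The following 5 sequences come from regions that carry the comparison, the exon-free end of the region for *Plac8* and the centre for the others, read from the plus strand of GRCm38.p6 (mm10). Capitals mark letters shared with short binding motifs that were searched on both strands: TCAAAGG for TCF and LEF factors, AACCACA for Runt factors, TGANTCA for bZIP factors, GGTGTGA for T-box factors, AGGAAGT for ETS factors and CAGGTG for E-box proteins. A match is a description of the letters and not a binding site. The stretch near *Il17a* (chr1:20740562-20740861) comes from a locus more accessible in iNKT17 cells, and from a region that was open in iNKT2 cells too. The stretches of *Blk* (chr14:63392570-63392869) and *Satb1* (chr17:51763588-51763887) are from regions with a wider contrast in *Hivep3*-/- mice, and those of *Plac8* (chr5:100572246-100572483) and *Cxcr3* (chrX:101737173-101737472) are from regions with a narrower one.
near Il17a: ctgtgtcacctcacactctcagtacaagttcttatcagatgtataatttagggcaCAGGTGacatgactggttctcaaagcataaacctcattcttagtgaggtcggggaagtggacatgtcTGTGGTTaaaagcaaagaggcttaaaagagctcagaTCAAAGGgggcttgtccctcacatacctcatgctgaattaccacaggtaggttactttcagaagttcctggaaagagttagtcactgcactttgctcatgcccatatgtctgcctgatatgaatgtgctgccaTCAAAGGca
Blk intron: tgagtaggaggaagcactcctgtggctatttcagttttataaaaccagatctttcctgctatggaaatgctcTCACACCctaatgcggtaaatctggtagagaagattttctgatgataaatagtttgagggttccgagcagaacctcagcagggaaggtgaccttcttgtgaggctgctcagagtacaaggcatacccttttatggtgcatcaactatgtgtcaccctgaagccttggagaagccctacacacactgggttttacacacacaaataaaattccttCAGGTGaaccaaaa
Satb1 intron: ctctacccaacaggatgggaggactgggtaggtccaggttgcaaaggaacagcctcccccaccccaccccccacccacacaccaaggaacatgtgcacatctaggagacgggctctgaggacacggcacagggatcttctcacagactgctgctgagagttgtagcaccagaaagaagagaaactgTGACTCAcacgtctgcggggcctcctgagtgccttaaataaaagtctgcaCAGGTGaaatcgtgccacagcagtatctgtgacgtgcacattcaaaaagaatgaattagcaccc
Plac8 promoter: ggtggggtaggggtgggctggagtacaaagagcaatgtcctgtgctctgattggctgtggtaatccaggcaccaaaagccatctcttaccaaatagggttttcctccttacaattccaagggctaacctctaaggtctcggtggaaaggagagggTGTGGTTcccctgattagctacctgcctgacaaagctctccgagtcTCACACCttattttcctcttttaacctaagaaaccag
near Cxcr3: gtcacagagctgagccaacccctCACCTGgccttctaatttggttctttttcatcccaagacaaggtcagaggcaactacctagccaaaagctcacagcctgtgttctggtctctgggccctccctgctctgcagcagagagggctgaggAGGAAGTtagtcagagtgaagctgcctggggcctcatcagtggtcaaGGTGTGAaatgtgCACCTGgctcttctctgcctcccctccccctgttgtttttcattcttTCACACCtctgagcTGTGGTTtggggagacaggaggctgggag
The *Il17a* stretch held 2 TCF matches and the *Cxcr3* stretch 2 T-box matches. The *Plac8* and *Blk* stretches each held 1 T-box match.

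The 2 subsets remained far apart without *Hivep3*. Of the 58563 regions, 9125 (15.6%) differed by 3-fold or more with an adjusted p below 0.1 in limma, the limits that the study used. iNKT2 cells were more accessible at 4291 regions (7.33%) and iNKT17 cells at 4834 (8.25%). Differences are given below as iNKT2 minus iNKT17 on the log2 scale, so that a positive value means more accessible in iNKT2 cells. The split rested on low values, since a pseudocount of 5 on the linear scale left 805 regions higher in iNKT2 and 2119 higher in iNKT17 cells (957 and 2319 in C57BL/6 mice). The median difference over all tested regions was 0.04. Within the 46692 regions accessible in both subsets, 929 were higher in iNKT2 and 1005 in iNKT17 cells, while 3362 of the regions accessible in iNKT2 cells alone and 3829 of those accessible in iNKT17 cells alone were called. The libraries of the 2 subsets did not overlap in 9124 of the 9125 regions, which was also true of 69.2% of all tested regions. In 541 called regions 1 library of the lower subset, and in 212 both, stood at the lowest value of the library, and no fold is printed for the latter.

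C57BL/6 mice gave 9543 such regions of 58866 tested (16.2%), 4544 higher in iNKT2 (7.72%) and 4999 higher in iNKT17 cells (8.49%). The genotypes shared no library in these 2 contrasts. The difference went the same way in both genotypes at 6970 regions, which is 76.4% of the *Hivep3*-/- and 73.0% of the C57BL/6 calls, and in opposite ways at 0 regions. The iNKT17 side was shared more completely than the iNKT2 side in count: 84.0% of the *Hivep3*-/- regions higher in iNKT17 were called in C57BL/6 mice, against 67.8% of those higher in iNKT2. The difference between these shares was not tested. The regions not shared include 282 on the iNKT2 side and 152 on the iNKT17 side that were too low for a test in C57BL/6 mice. Most of the others pointed the same way without being called. The same sign was found in C57BL/6 mice for 99.7% of the *Hivep3*-/- iNKT2 regions and 99.8% of the iNKT17 regions. The median difference over the *Hivep3*-/- iNKT2 regions was 2.24 in *Hivep3*-/- and 2.02 in C57BL/6 mice, and over the iNKT17 regions it was -2.98 and -3.21. A list chosen in 1 genotype favours that genotype on its own values, and the C57BL/6 list of iNKT2 regions accordingly had medians of 2.13 in *Hivep3*-/- and 2.32 in C57BL/6 mice.

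**Figure D1:**
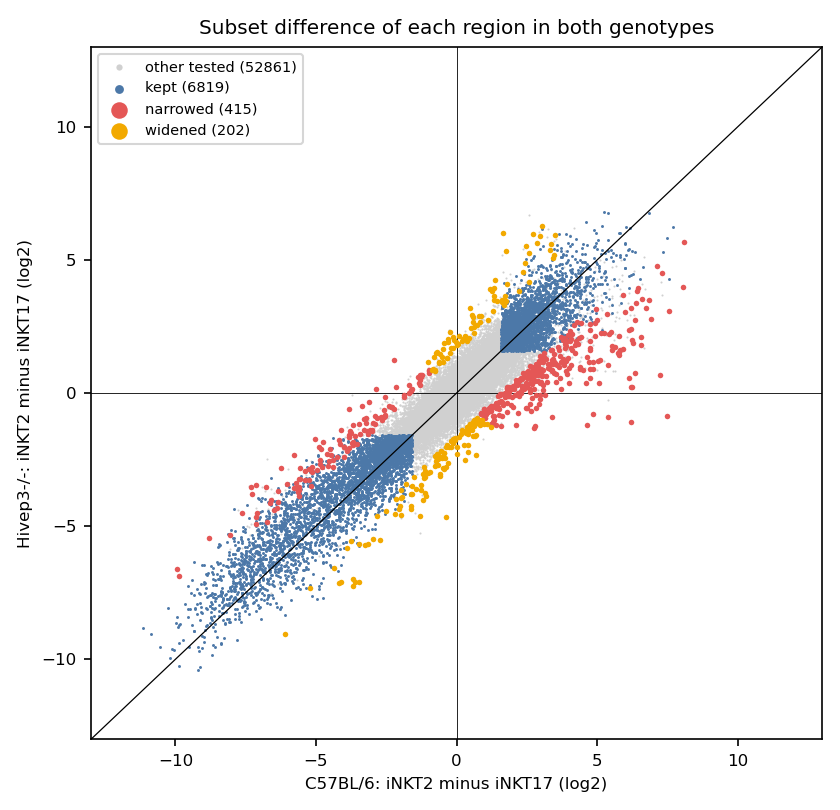
Each point is 1 of 60297 regions, with the iNKT2 minus iNKT17 difference (log2) in C57BL/6 mice on the x axis and in *Hivep3*-/- mice on the y axis, and the line marks equal differences. The 6819 kept regions follow the line, the 415 narrowed regions lie towards a *Hivep3*-/- difference of 0 and the 202 widened regions lie away from it.

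A region is termed kept where both genotypes were called the same way and the change of the difference between genotypes, the interaction term of the fit, was not called. That term is the *Hivep3*-/- difference minus the C57BL/6 difference. There were 6819 kept regions, 2857 higher in iNKT2 and 3962 higher in iNKT17 cells, and kept does not mean equal. Across 60297 regions accessible in any of the 4 groups, the 2 differences had a Pearson r of 0.928, a description over regions that were processed together and share their base composition. Their SDs were 1.48 in *Hivep3*-/- and 1.57 in C57BL/6 mice, and the SD of the change was 0.59.

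*Il4* and *Sdc1*, the genes that mark the 2 subsets, went with the labels in *Hivep3*-/- cells. At the *Il4* locus, taken as the mean of the 14 regions in the gene or within 10 kb of it, the *Hivep3*-/- iNKT2 libraries had 5.54 and 5.63 and the iNKT17 libraries 3.88 and 3.93. The difference was 1.68 (standard error 0.06, adjusted p = 1.80e-07, limma), with the libraries of the subsets well apart, and 11 of the 14 regions were called against 8 in C57BL/6 mice. The C57BL/6 difference was 1.56, from libraries at 5.80 and 5.74 against 4.16 and 4.25. The largest *Il4* contrast lay in an intergenic region upstream of the gene. Its values were 4.42 and 4.42 in *Hivep3*-/- iNKT2 and -0.78 and 0.63 in *Hivep3*-/- iNKT17 cells, a difference of 4.49 (standard error 0.45, adjusted p = 3.62e-06), against 3.59 in C57BL/6 mice. For the sort marker *Sdc1*, the 10 regions of the locus gave 2.34 and 2.15 in iNKT2 and 5.05 and 5.02 in iNKT17 cells without *Hivep3*. Its difference of -2.79 (standard error 0.12) was close to the C57BL/6 value of -2.74, with 8 of 10 regions called in each genotype.

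**Figure D2:**
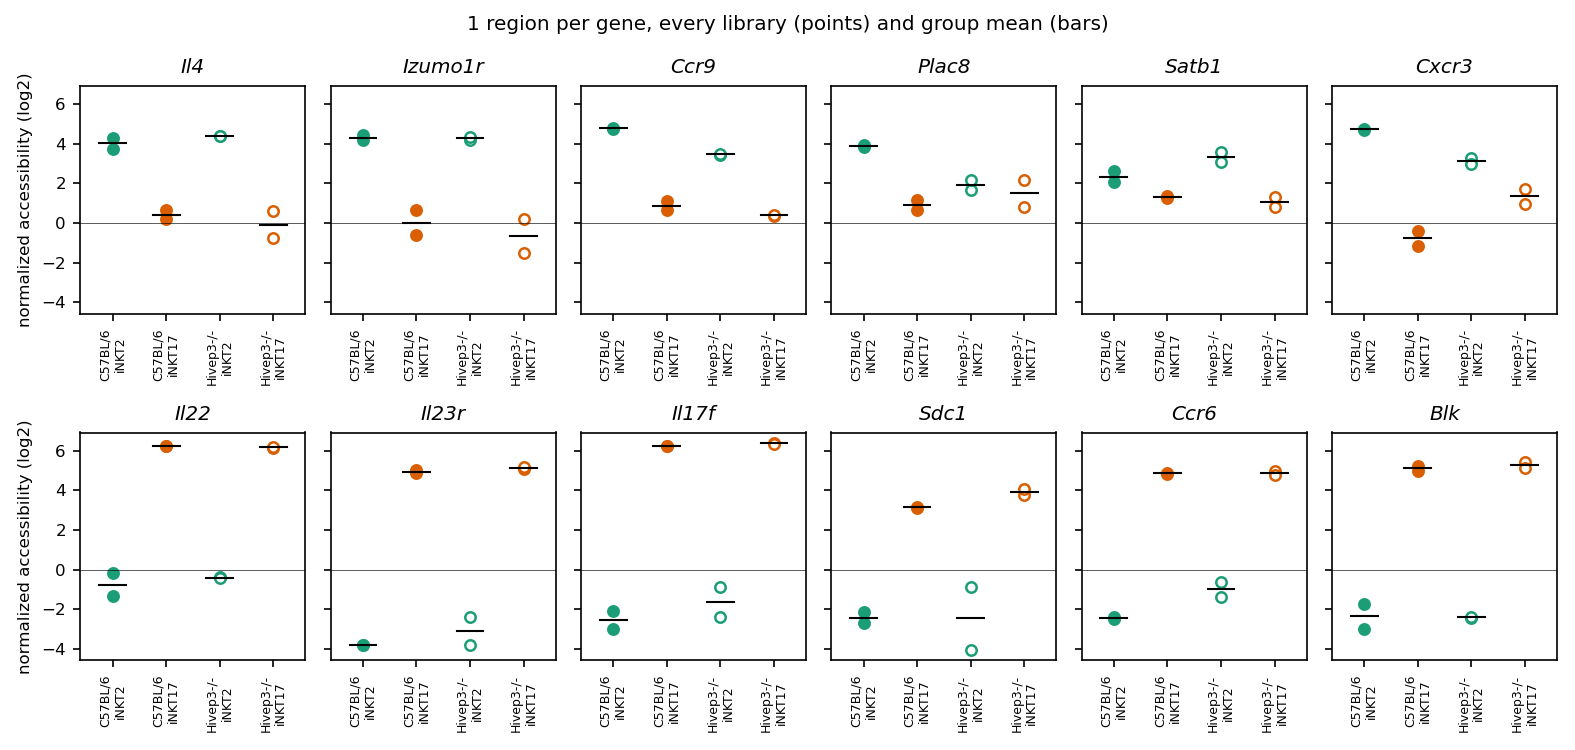
Log2 accessibility of 1 region for each of 12 genes, with 1 point per library (filled for C57BL/6, open for *Hivep3*-/-, green for iNKT2, orange for iNKT17) and a bar at each group mean. The *Il22*, *Il23r*, *Il17f*, *Sdc1*, *Ccr6* and *Blk* regions were high in all iNKT17 and low in all iNKT2 libraries of both genotypes, while at *Plac8* only the C57BL/6 iNKT2 libraries (3.95 and 3.84) stood above the other 3 groups.

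The regions with the largest *Hivep3*-/- contrast had very low values in the lower subset. On the iNKT17 side, an intronic region with *Gcnt2* as the nearest gene had -3.79 and -2.39 in iNKT2 against 6.55 and 6.37 in iNKT17 cells. That difference of -9.55 (standard error 0.55, adjusted p = 4.38e-08) was -8.58 in C57BL/6 mice. *Gcnt2* encodes an enzyme that branches glycan chains, and a neighbouring region gave -9.26. Regions near *Pla2g2d*, a secreted phospholipase, and in *Myo16*, an unconventional myosin, reached -9.55 each, and all 10 of the largest iNKT17 regions were kept. On the iNKT2 side the 10 largest differences ran from 5.59 to 6.28. The *Nek10* intron region (chromosome 14, 14986119–14986618) had 5.59 and 5.47 in iNKT2 and -1.52 and 0.19 in iNKT17 cells, with differences of 6.20 in *Hivep3*-/- and 6.17 in C57BL/6 mice. Of these 10, 7 were kept, the exonic *Atp8b2* region and an intronic region on chromosome 10 (14328878–14329377) were widened, and a region on chromosome 14 (52953171–52953670) was narrowed. The chromosome 14 region is intergenic by the genes annotated here, which leave out T cell receptor variable genes. Its change of -2.42 (adjusted p = 0.0980, limma) was not among those run under the alternatives. The *Hivep3*-/- difference of all 20 regions stayed past the limits under every alternative run on it. The widening itself was lost without any of 4 single libraries at *Atp8b2* (2.87 to 3.34) and any of 5 at the chromosome 10 region (3.12 to 3.42), and at both with a pseudocount of 1 or 5 and with no variance trend.

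Gene loci gave the same picture for named genes. A locus value is the log2 of the mean linear level over the regions in a gene and 10 kb on either side, called where it differed by 1.5-fold or more with an adjusted p below 0.1. Of 15303 loci, 2230 (14.6%) differed in *Hivep3*-/- cells, 1211 higher in iNKT2 (7.91%) and 1019 higher in iNKT17 cells (6.66%), against 2203 (14.4%) in C57BL/6 cells, 1165 (7.61%) and 1038 (6.78%). Of these, 1641 were called the same way in both genotypes, or 73.6% of the *Hivep3*-/- and 74.5% of the C57BL/6 loci, and 1597 of them were kept. The median of all loci was 0.04 in both genotypes. Neighbouring loci share regions, so that the *Il4* and *Il13* values rest partly on the same chromatin.

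The type 2 cytokine genes kept their iNKT2 contrast. Among 13 genes of the Th2 locus and the factors tied to it, 4 loci were higher in iNKT2 cells, 2 were higher in iNKT17 cells and 7 were not called, with the same 6 called the same way in C57BL/6 mice. *Il13*, which encodes a sister cytokine of IL-4, differed by 1.92 in *Hivep3*-/- and 1.70 in C57BL/6 cells. *Rad50*, a DNA repair gene whose introns hold the locus control region, differed by 0.77 and 0.71, and its neighbour *Kif3a*, a kinesin gene, by 0.99 and 1.17. *Il5*, in the same cytokine cluster and encoding an eosinophil growth factor, went the other way. The 2 regions of the *Il5* locus gave 2.63 and 2.28 in *Hivep3*-/- iNKT2 against 5.37 and 5.29 in iNKT17 cells, a difference of -2.88 (standard error 0.13), and -2.33 in C57BL/6 mice. The bZIP factor gene *Nfil3* was likewise higher in iNKT17 cells, by -2.16 and -2.17. *Gata3*, the master factor of type 2 cells, was at -0.06 in *Hivep3*-/- and 0.19 in C57BL/6 mice, and *Zbtb16*, which encodes PLZF and has 86 regions, at 0.22 and 0.23, and none of these passed. Of 15 *Gata3* regions, 0 were higher in iNKT2 cells of either genotype, while 3 in *Hivep3*-/- and 1 in C57BL/6 mice were higher in iNKT17 cells. At *Zbtb16*, 8 regions were higher in iNKT2 and 2 in iNKT17 cells without *Hivep3*, against 2 and 1 in C57BL/6 mice. Over the list, the median was 0.18 in *Hivep3*-/- and 0.23 in C57BL/6 mice, and of 220 tested regions 29 were higher in iNKT2 and 16 in iNKT17 cells without *Hivep3* (20.5% called).

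The called contrasts on the list of iNKT2 surface genes went the same way in both genotypes. Of 14 loci, 7 were higher in iNKT2 cells, 0 were higher in iNKT17 cells and 7 were not called in each genotype. The same 7 genes were higher in both genotypes. The median difference was 0.47 in *Hivep3*-/- and 0.54 in C57BL/6 mice, and of 137 tested regions 27 were higher in iNKT2 and 5 in iNKT17 cells without *Hivep3* (23.4% called). *Izumo1r*, which encodes folate receptor 4 and was used in the sort, differed by 1.36 in *Hivep3*-/- and 1.63 in C57BL/6 cells. *Slamf6*, a SLAM family receptor that selects iNKT cells, differed by 1.33 and 1.09, and the coreceptor gene *Cd4* by 0.84 and 0.68. The IL-6 receptor gene *Il6ra* gave 0.73 and 0.81 and the lymph node homing receptor gene *Ccr7* 0.69 and 0.78. The IL-25 receptor gene *Il17rb* stood at 0.32 in both genotypes and was not called. *Ccr9*, which encodes the receptor for the thymic and gut chemokine CCL25, kept a locus contrast of 0.73 against 0.97. Of its regions 4 passed in *Hivep3*-/- and 8 in C57BL/6 cells, but only 10 of the 13 were tested in *Hivep3*-/- cells. *Plac8*, the last called gene of this list, is described with the narrowed loci.

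Loci of early T cell factors showed contrasts in *Hivep3*-/- mice that did not pass in C57BL/6 mice. Of 14 loci, *Satb1*, *Tox* and *Lef1* were higher in *Hivep3*-/- iNKT2 than iNKT17 cells, and 0 of the 14 passed in C57BL/6 cells. The list's median was 0.14 and 0.02, and 14.1% of its 191 tested regions were called in *Hivep3*-/- cells, a share close to that of all regions. At *Satb1*, which encodes a chromatin organiser of thymocytes, the *Hivep3*-/- iNKT2 libraries had 4.60 and 4.54 and the iNKT17 libraries 3.79 and 3.74. The C57BL/6 libraries had 4.12 and 3.88 in iNKT2 and 3.76 and 3.79 in iNKT17 cells, so that the excess was seen in the *Hivep3*-/- iNKT2 libraries. The difference was 0.80 (standard error 0.09) in *Hivep3*-/- and 0.22 in C57BL/6 cells, and the change of 0.58 missed the limit (adjusted p = 0.102). Of its regions 2 passed it, and 7 *Satb1* regions were called in *Hivep3*-/- against 0 in C57BL/6 cells. In the intron region that gave the *Satb1* sequence (chromosome 17, 51763488–51763987), the values were 5.55 and 5.55 in *Hivep3*-/- iNKT2, 3.55 and 3.29 in *Hivep3*-/- iNKT17, 4.35 and 3.94 in C57BL/6 iNKT2 and 3.68 and 4.01 in C57BL/6 iNKT17 cells. Its change was 1.82 (standard error 0.33, adjusted p = 0.0195). The change of the other region (51789094–51789593) was lost without any of 7 single libraries, with values of 1.38 to 2.59. The HMG factor gene *Tox* had differences of 0.80 and 0.47 with a change that was not called (adjusted p = 0.167), and *Lef1*, which encodes a TCF family factor, had 0.65 and 0.56, so the genotypes cannot be said to differ there. The TCR-induced genes *Egr1*, *Egr2* and *Nr4a1* were at 0.07, -0.08 and -0.28 in *Hivep3*-/- cells and were not called.

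The called contrasts of iNKT17 cytokine and receptor genes mostly went the same way in both genotypes. Among 10 loci of iNKT17 cytokines and cytokine receptors, 8 were higher in *Hivep3*-/- iNKT17 cells and 7 of these in C57BL/6 iNKT17 cells too, and 46 of the 81 tested regions (56.8%) were called. The median locus difference was -1.97 in *Hivep3*-/- and -1.66 in C57BL/6 mice. At *Il17f*, whose locus is a promoter region alone, the *Hivep3*-/- libraries had -0.88 and -2.39 in iNKT2 and 6.40 and 6.34 in iNKT17 cells. That contrast of -8.01 (standard error 0.74) was -8.79 in C57BL/6 mice. *Il23r*, the receptor gene for IL-23, differed by -4.03 and -4.14, with the same iNKT17 excess kept in 11 of 14 regions. At *Il1r1*, the IL-1 receptor gene, the iNKT2 libraries had 2.48 and 2.43 and the iNKT17 libraries 5.46 and 5.45 without *Hivep3*, a difference of -3.00 against -2.99 in C57BL/6 mice, and 22 of its 24 regions were kept. *Il22* gave -2.56 and -2.11 and *Il17re*, an IL-17 receptor chain gene, -1.37 and -1.49. *Il12rb1*, the chain shared by the IL-12 and IL-23 receptors, passed in *Hivep3*-/- cells at -0.62 and had -0.51 in C57BL/6 cells, and without *Hivep3*-/- iNKT17 replicate 2 its *Hivep3*-/- value was -0.55 and was not called.

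The iNKT17 transcription factor genes followed in part. Of 10 loci of iNKT17 transcription factors, 5 were higher in *Hivep3*-/- and 3 in C57BL/6 iNKT17 cells, with medians of -0.48 and -0.40, and 37.3% of 134 tested regions were called in *Hivep3*-/- cells. The Ikaros family gene *Ikzf3* passed in both genotypes (-1.12 and -0.98). *Ahr*, the aryl hydrocarbon receptor gene, passed at -0.75 and -1.05, *Batf* at -0.59 in *Hivep3*-/- cells alone and *Sox13* at -0.61 in *Hivep3*-/- cells alone. Each of these 3 calls was lost when either of 2 *Hivep3*-/- libraries was left out: *Ahr* without iNKT2 replicate 1 (-0.40) or iNKT17 replicate 2 (-0.63), *Batf* without the same libraries (-0.53 and -0.51), and *Sox13* without iNKT2 replicate 2 (-0.53) or iNKT17 replicate 2 (-0.37). *Rora* was at -0.37 and *Maf* at -0.27 and did not pass.

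Of 15 surface and effector genes, 10 were higher in iNKT17 cells and the same 10 in C57BL/6 mice, and of 131 tested regions 65 were higher in iNKT17 and 4 in iNKT2 cells without *Hivep3* (52.7% called). The median locus difference was -1.31 in *Hivep3*-/- and -1.18 in C57BL/6 mice. The chemokine receptor gene *Ccr6* had 0.05 and -0.19 in *Hivep3*-/- iNKT2 and 4.19 and 4.23 in iNKT17 cells, a difference of -4.28 against -3.59 in C57BL/6 cells. The ion channel genes *Tmem176a* and *Tmem176b*, which are neighbours, gave -3.87 and -3.44 in *Hivep3*-/- and -4.07 and -3.39 in C57BL/6 cells. The protease inhibitor gene *Serpinb1a* gave -2.69 and -3.23, and the leukotriene receptor gene *Ltb4r1* gave -2.00 and -1.72. *Nrp1*, a neuropilin gene, was the only member higher in *Hivep3*-/- iNKT2 cells (0.61, and 0.53 in C57BL/6 cells), a call lost without *Hivep3*-/- iNKT2 replicate 1 (0.54) or iNKT17 replicate 2 (0.50).

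**Figure D3:**
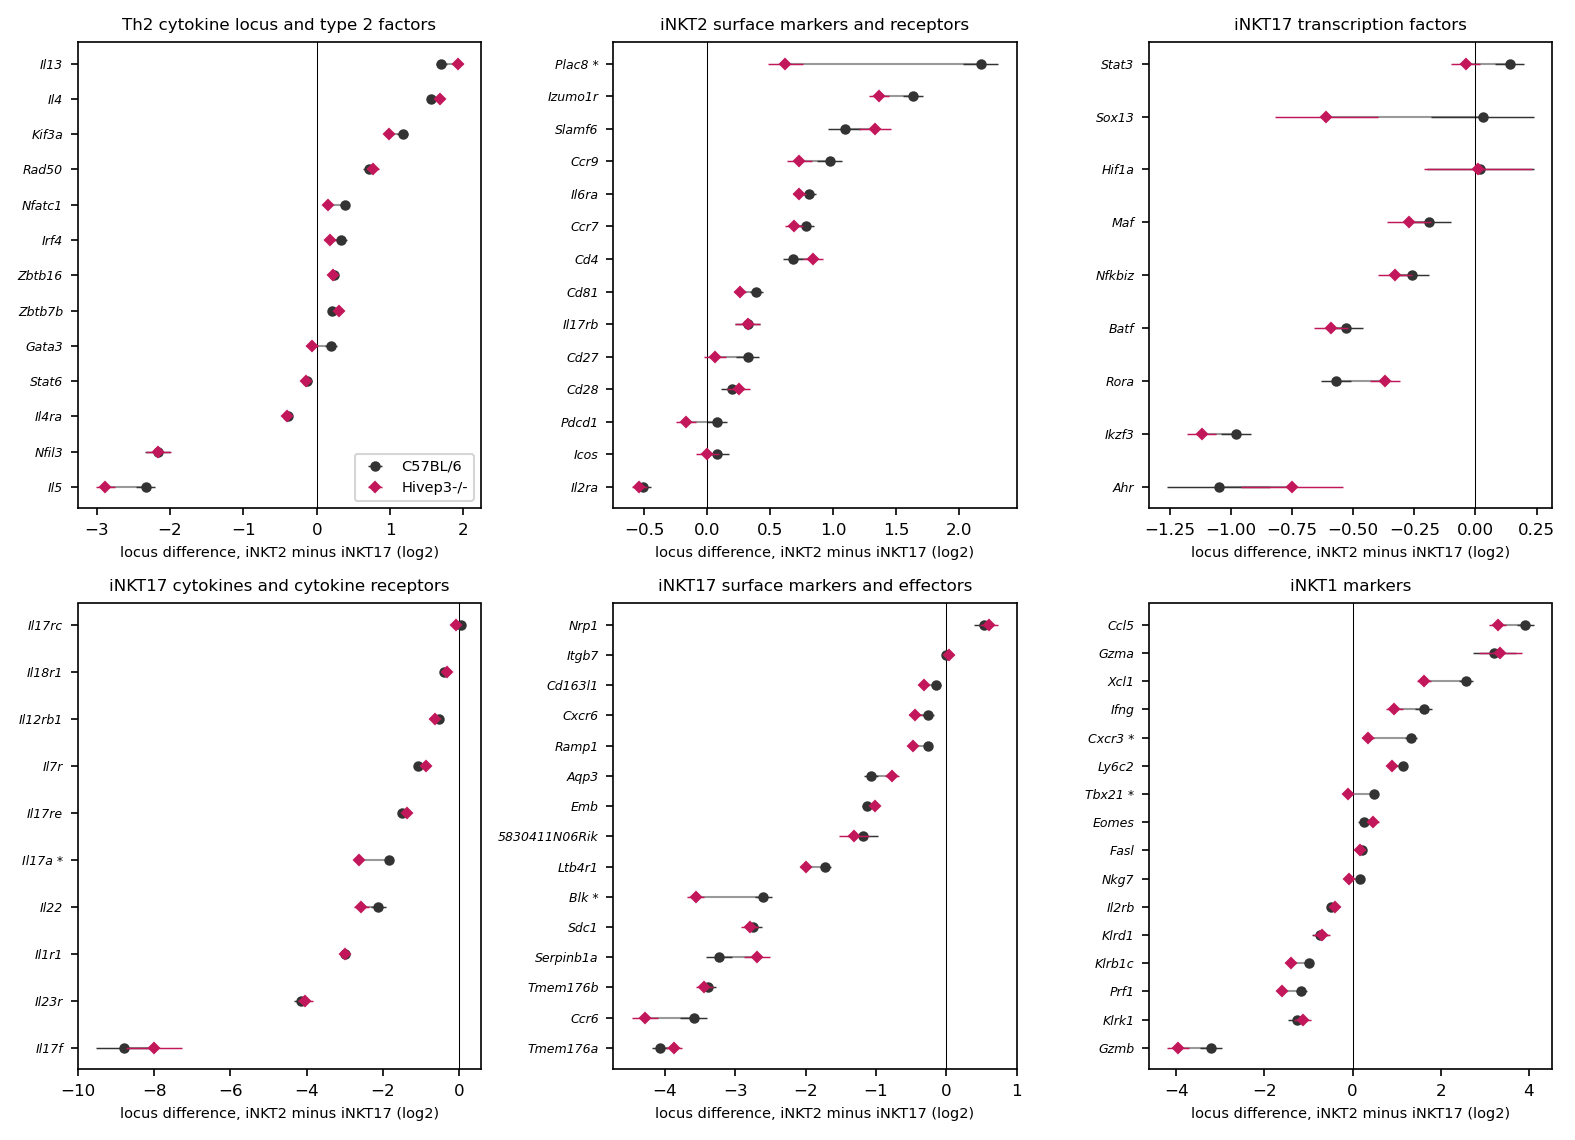
Locus differences (iNKT2 minus iNKT17, log2, with standard errors) in C57BL/6 and *Hivep3*-/- mice, joined for each gene shown of 6 lists, where an asterisk marks a called change between the genotypes. Most pairs lie close together, from -8.79 and -8.01 at *Il17f* to 3.92 and 3.29 at *Ccl5*, and *Plac8*, *Il17a*, *Blk*, *Tbx21* and *Cxcr3* carry asterisks.

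Counted over regions, the genes with most kept contrast were not all classical markers. On the iNKT2 side, *Inpp4b*, which encodes a phosphoinositide phosphatase, had 19 kept regions of 41 (locus differences 1.81 and 1.43). *Tmod1*, which encodes an actin capping protein, had 10 of 12 (2.72 and 3.07), and *Rptor*, a component gene of the mTORC1 kinase complex, had 10 of 27 (1.06 and 1.10). On the iNKT17 side, after *Il1r1* with 22, *Blk* had 16 kept regions of 21, and *Myo16* had 13 of 14. *Myo16* had the widest locus contrast of these genes, -5.92 in *Hivep3*-/- and -6.29 in C57BL/6 cells, and the growth factor receptor gene *Igf1r* had 12 of 20 kept regions (-1.53 and -1.79). The transcript *Gm20388* held 20 and 28 kept regions on the 2 sides, but its gene model spans 361 regions and several other genes.

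The kept regions lay away from promoters and differed in their letters. A promoter position, within 1000 bp of a transcription start, was taken by 6.27% of the regions kept for iNKT2 and 8.13% of those kept for iNKT17, against 32.9% of all tested regions. Introns held 49.9% and 51.9% of them, against 35.5%, and the median distance to a start was 25.5 and 22.7 kb against 8.38 kb. The letters of ROR factors (TAGGTCA) occurred in 949 of 3962 regions kept for iNKT17 (24.0%), in 87 of 2857 kept for iNKT2 (3.05%) and in 3206 of all 58563 (5.47%). The TCF letters were in 15.6% of the iNKT2 and 10.7% of the iNKT17 regions against 9.43% overall. The Egr letters (GCGTGGG), which are rich in G and C, were in 5.04% and 2.80% against 7.12%, with a median GC content of 47.4% and 46.4% in the kept regions and 50.4% overall. The Runt letters were in 19.0% and 24.4% against 16.7%, and the bZIP letters in 18.9% and 22.4% against 15.6%. The E-box letters (CAGGTG) were in 37.2% and 30.9% against 34.4%. Among the other motifs searched, ETS was in 24.0% and 21.2% against 20.9% and T-box in 11.2% and 8.25% against 7.92%. The NFAT letters (TTTTCCA) were in 12.2% and 10.9% against 9.94% and the Maf letters (TGCTGAC) in 8.89% and 10.8% against 8.53%. The letters AGATAAG of GATA factors were in 8.65% and 8.00% against 6.01%, and NF-κB in 1.02% and 1.16% against 1.09%.

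**Figure D4:**
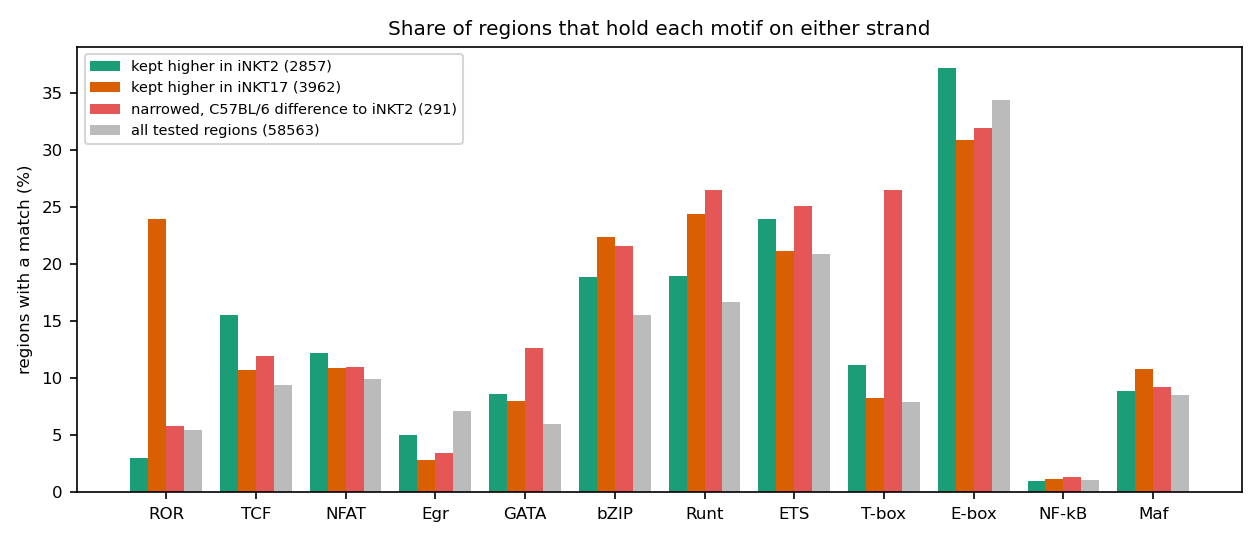
Share of regions (percent, bars from 0) whose 500 bp hold the letters of each of 12 motifs on either strand, for regions kept higher in iNKT2 (2857), kept higher in iNKT17 (3962), narrowed with a C57BL/6 difference towards iNKT2 (291) and all tested regions (58563). The ROR bar of the iNKT17 regions (24.0%) and the T-box bar of the narrowed regions (26.5%) stand above the 5.47% and 7.92% of all tested regions.

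A change of the contrast with *Hivep3* was called at 617 of 60297 regions (1.02%), of which 415 (0.688%) were narrowed, with the smaller absolute difference in *Hivep3*-/- mice, and 202 (0.335%) were widened. These counts rested on single libraries and on low values. The total was 302 without C57BL/6 iNKT2 replicate 2, 337 without C57BL/6 iNKT2 replicate 1 and 391 without C57BL/6 iNKT17 replicate 1, and 302–831 over all such fits. It was 32 with a pseudocount of 5 on the linear scale (28 narrowed and 4 widened) and 50 (28 and 22) among regions with a mean of at least 5 in all of the 4 groups, a limit chosen after seeing the data. At any fold 1984 regions had an adjusted p under 0.1. The 2 classes go by absolute size alone, and 51 narrowed and 50 widened regions were called in neither genotype. Of the narrowed regions, 291 had their C57BL/6 difference towards iNKT2 and 124 towards iNKT17, and 349 (84.1%) had the larger genotype difference in iNKT2 cells, against 56.8% of all regions. The same held for 146 of the 202 widened regions (72.3%).

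The iNKT1 libraries, which enter the classes through the shared estimate of spread alone, had levels of their own in these regions. In the 291 regions narrowed on the iNKT2 side, the median was 3.47 in C57BL/6 iNKT2 and 1.87 in *Hivep3*-/- iNKT2 cells, 0.39 and 0.99 in iNKT17 cells, and 4.14 and 3.63 in iNKT1 cells. iNKT1 cells stood above iNKT2 cells of C57BL/6 mice in 172 of them (59.1%), against 14.7% of the regions kept for iNKT2 and 48.4% of all tested regions. The T-box letters were in 26.5% of the 291, against 11.2% of the regions kept for iNKT2 and 7.92% overall. In the 124 regions narrowed on the iNKT17 side, the median was -0.11 in C57BL/6 and 2.06 in *Hivep3*-/- iNKT2 cells, with iNKT17 cells at 3.87 and 3.89, and 23.4% held the ROR letters. In the 122 regions widened towards iNKT17, iNKT2 cells had 2.67 in C57BL/6 and 0.81 in *Hivep3*-/- mice, while iNKT17 cells had 3.16 and 3.39 and iNKT1 cells 3.44 and 3.55. In the 80 widened towards iNKT2, iNKT17 cells had 2.40 in C57BL/6 and 1.34 in *Hivep3*-/- mice and iNKT2 cells 2.92 and 3.64. These medians describe classes that the same values of iNKT2 and iNKT17 cells defined.

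Among the regions of 16 iNKT1 marker genes, 5 of 65 (7.69%) were narrowed and 2 widened, and the median locus difference was 0.04 in *Hivep3*-/- and 0.24 in C57BL/6 mice. Without C57BL/6 iNKT2 replicate 1 alone, 3 of the 5 narrowed calls were lost, those of a *Tbx21* intron region, the *Xcl1* promoter and another *Nkg7* region, as was the widened call of a *Tbx21* region. Over the single libraries that ended them, the 3 narrowed changes were -2.36 to -1.58, -1.92 to -1.36 and -1.78 to -1.24, and the widened one -2.33 to -1.18. Of the 16 loci, 5 were higher in *Hivep3*-/- iNKT2 cells (*Ifng*, *Xcl1*, *Gzma*, *Ccl5* and *Ly6c2*), 5 were higher in *Hivep3*-/- iNKT17 cells (*Klrb1c*, *Klrd1*, *Klrk1*, *Gzmb* and *Prf1*) and 6 were not called. The *Klrd1* call was lost without iNKT2 replicate 2 or iNKT17 replicate 2 of *Hivep3*-/- mice, with values of -0.55 to -0.38. The summed linear level of the whole list was 1344 and 1343 in *Hivep3*-/- iNKT2 against 1471 and 1456 in C57BL/6 iNKT2 libraries, 1611 and 1614 against 1538 and 1584 in iNKT17 libraries, and 3073–3198 in iNKT1 libraries. The subsets were together during the transposition, and the part of this list's level in the narrowed contrasts was not tested. The most changed of these regions lay upstream of *Cxcr3*, which encodes a chemokine receptor of type 1 cells, at -3053 bp from its start (chromosome X, 101737073–101737572, intergenic). Its values were 3.28 and 2.98 in *Hivep3*-/- iNKT2, 1.74 and 0.97 in *Hivep3*-/- iNKT17, 4.72 and 4.77 in C57BL/6 iNKT2 and -0.41 and -1.15 in C57BL/6 iNKT17 cells. Both subsets thus moved, from a difference of 5.53 to 1.78 (change -3.75, standard error 0.39, adjusted p = 0.00235), and the iNKT1 libraries had 6.19 and 6.22 in C57BL/6 and 5.80 and 5.83 in *Hivep3*-/- mice. Without *Hivep3*-/- iNKT17 replicate 2 the *Hivep3*-/- difference was 1.39 and was not called, while the change was called without any single library. At the promoter of *Nkg7*, a cytotoxic granule gene (chromosome 7, 43436792–43437291), C57BL/6 iNKT2 libraries had 3.89 and 3.61 while the *Hivep3*-/- iNKT2 libraries had 1.44 and 1.47, near both iNKT17 groups (0.97–1.88). The change was -2.58 (adjusted p = 0.00529), with iNKT1 libraries at 7.19–7.32. The locus of *Tbx21*, which encodes T-bet, moved from 0.49 to -0.11 (change -0.59, standard error 0.12, adjusted p = 0.0773) and that of *Cxcr3* from 1.33 to 0.35 (change -0.98, standard error 0.19, adjusted p = 0.0695). Both of these locus calls were lost without any of 6 single libraries, with changes of -0.52 to -0.61 for *Tbx21* and -0.78 to -1.01 for *Cxcr3*. The chemokine gene *Ccl5* (3.29 and 3.92) and the granzyme gene *Gzmb* (-3.95 and -3.21) kept their contrasts.

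At the level of loci, 118 of 15303 (0.771%) changed their contrast, 60 narrowed (0.392%) and 58 widened (0.379%), and 24 of them rest on a single region. The count was 14 without C57BL/6 iNKT2 replicate 1, 21 without C57BL/6 iNKT2 replicate 2, 29 and 39 without C57BL/6 iNKT17 replicates 1 and 2, 46 without *Hivep3*-/- iNKT2 replicate 1 and 75 without *Hivep3*-/- iNKT17 replicate 2. With the replicate number as a block it was 269. The loci of *Il10ra*, *Slc38a8* and *Serpinb1b* were called under all 13 alternatives, and *Plac8* and *Fgl2* under 11 of 13, none of them lost with the loss of a single library.

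*Plac8*, which the study names for its transcript in iNKT2 cells, was the gene of the iNKT2 surface list whose contrast narrowed. Its 4 regions gave a locus level of 2.74 and 2.75 in *Hivep3*-/- iNKT2, 2.15 and 2.10 in *Hivep3*-/- iNKT17, 4.38 and 4.07 in C57BL/6 iNKT2 and 2.10 and 2.01 in C57BL/6 iNKT17 cells. The C57BL/6 iNKT2 libraries stood above the other 6, and the *Hivep3*-/- iNKT2 libraries lay between them and the iNKT17 libraries. The difference was 0.62 (standard error 0.14, adjusted p = 0.00568) in *Hivep3*-/- and 2.17 in C57BL/6 cells, a change of -1.55 (standard error 0.19, adjusted p = 0.0178). All 4 regions passed in C57BL/6 and 0 in *Hivep3*-/- cells, where 3 of the 4 reached the mean needed for a test. At the promoter (chromosome 5, 100571984–100572483) the *Hivep3*-/- iNKT2 libraries had 1.66 and 2.15 and the C57BL/6 ones 3.95 and 3.84, with iNKT1 libraries of 3.14 and 2.92 in C57BL/6 mice. Its change of -2.59 (standard error 0.54, adjusted p = 0.0356) was lost without any of 4 single libraries, which gave -2.64 to -2.32. With 50 kb on either side or by nearest start, which bring in other regions, the locus change was not called.

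*Il10ra*, which encodes the ligand-binding chain of the IL-10 receptor, narrowed likewise. The locus of 7 regions had 3.65 and 3.53 in *Hivep3*-/- iNKT2, 2.65 and 2.72 in *Hivep3*-/- iNKT17, 4.58 and 4.66 in C57BL/6 iNKT2 and 2.14 and 2.09 in C57BL/6 iNKT17 cells. The 4 groups did not overlap, and the *Hivep3*-/- groups lay between the C57BL/6 groups. The difference was 0.90 in *Hivep3*-/- and 2.50 in C57BL/6 cells, a change of -1.60 (standard error 0.13, adjusted p = 0.00299). In an exon region (chromosome 9, 45266119–45266618) the contrast was gone from the *Hivep3*-/- values, which were 1.93 and 1.69 in iNKT2 and 1.88 and 1.85 in iNKT17 cells, against 3.59 and 3.26 and 0.49 and 0.74 in C57BL/6 cells (change -2.87, adjusted p = 0.00529). Another exon region of the gene (45264400–45264899) was called in both genotypes, with a smaller difference in *Hivep3*-/- (2.67) than in C57BL/6 cells (4.27). The change there was not called. Its iNKT1 libraries of C57BL/6 mice had 2.30 and 3.05, below the 6.07 and 6.15 of iNKT2 cells. At *Slc38a8*, an amino acid transporter gene with 3 regions, the *Hivep3*-/- iNKT2 libraries had 2.66 and 2.84 against 4.61 and 4.56 in C57BL/6 mice, while all iNKT17 libraries had 2.07–2.23 (change -1.91, standard error 0.14, adjusted p = 0.00226). Its 2 upstream regions had iNKT1 levels of 5.21–6.37, above those of iNKT2 cells.

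**Figure D5:**
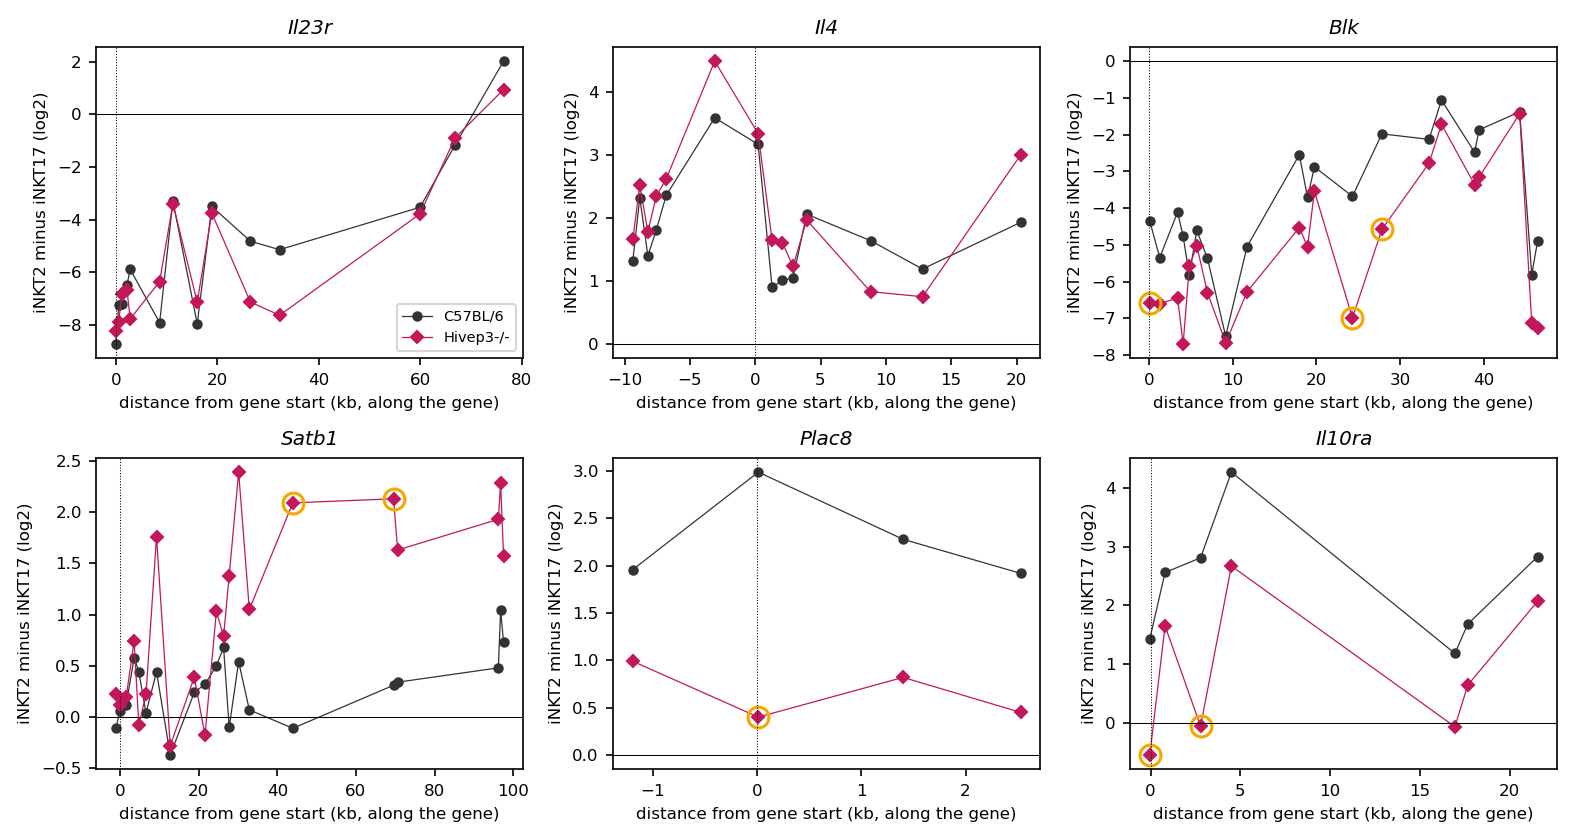
Difference of each region (iNKT2 minus iNKT17, log2) by distance from the gene start in kb at *Il23r*, *Il4*, *Blk*, *Satb1*, *Plac8* and *Il10ra*, with black circles for C57BL/6, magenta diamonds for *Hivep3*-/- and orange rings around regions called as narrowed or widened. The differences keep their sign in both genotypes at all *Il23r* and *Il4* regions, with 0 rings, while 3 *Blk* and 2 *Satb1* regions are ringed as widened, and the genotypes separate along the *Plac8* and *Il10ra* loci, where 1 and 2 regions are ringed as narrowed.

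The widened loci included genes of iNKT17 cells. *Blk*, which encodes a Src family kinase shared by B cells and IL-17-producing T cells, had 1.64 and 1.76 in *Hivep3*-/- iNKT2 and 2.60 and 2.54 in C57BL/6 iNKT2 cells, while the 4 iNKT17 libraries had 5.07–5.31. Its difference was -3.56 (standard error 0.12) in *Hivep3*-/- and -2.60 in C57BL/6 cells, a change of -0.96 (standard error 0.17, adjusted p = 0.0584), so that the contrast widened on the iNKT2 side. The intron region printed above (chromosome 14, 63392470–63392969) had -1.72 and -1.72 in *Hivep3*-/- iNKT2 and 1.75 and 1.48 in C57BL/6 iNKT2 cells, with iNKT17 libraries of 5.20–5.39 (change -3.31, standard error 0.48, adjusted p = 0.00663). Its iNKT2 levels lay below 5 on the linear scale in both genotypes. The change of this region was called under 12 of 13 alternatives (-3.44 to -0.58) and lost with a pseudocount of 5. *Il17a* had 3.01 and 2.95 in *Hivep3*-/- iNKT2 against 3.94 and 3.88 in C57BL/6 iNKT2 cells, and iNKT17 libraries of 5.56–5.76. The *Il17a* difference of -2.62 (standard error 0.09) was -1.83 in C57BL/6 cells, a change of -0.79 (standard error 0.13, adjusted p = 0.0454), and 5 of 5 regions passed in *Hivep3*-/- against 3 in C57BL/6 cells. In its downstream region with the TCF letters (chromosome 1, 20740462–20740961), the *Hivep3*-/- iNKT2 libraries had 5.01 and 5.06 and the C57BL/6 ones 6.09 and 5.98. The change was called for the *Il17a* locus only, as 0 of its 5 regions were called as widened and 0 as narrowed. The locus change of *Blk* was lost without any of 7 single libraries (-0.87 to -1.06) and that of *Il17a* without any of 5 (-0.74 to -0.83), in each case with the same direction.

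*Fgl2* and *Serpinb1b* were among the 10 widened loci with the largest change. The 6 regions around *Fgl2*, which encodes a secreted immunoregulatory protein and lies within *Ccdc146*, had 1.81 and 1.57 in *Hivep3*-/- iNKT2, 3.49 and 3.34 in *Hivep3*-/- iNKT17, 2.93 and 2.98 in C57BL/6 iNKT2 and 3.14 and 3.20 in C57BL/6 iNKT17 cells. The difference went from -0.22 in C57BL/6 to -1.72 in *Hivep3*-/- cells (change -1.50, standard error 0.16, adjusted p = 0.00849), with the *Hivep3*-/- iNKT2 libraries below the other 6. *Serpinb1b*, a relative of *Serpinb1a*, turned around: its 2 upstream regions gave 0.95 and 0.98 in *Hivep3*-/- iNKT2 against 2.57 and 1.97 in iNKT17 cells, but 2.68 and 2.65 against 1.83 and 1.55 in C57BL/6 mice (change -2.28, standard error 0.25, adjusted p = 0.00849). The iNKT1 libraries were higher than either subset in both *Serpinb1b* regions, with 4.23–7.33. Loci called in opposite directions in the genotypes numbered 4, *Serpinb1b*, the endothelin receptor gene *Ednrb* (-0.88 and 0.94), the interferon-induced *Ifitm1* (-0.60 and 0.74) and *Serp2* (-1.02 and 0.92), and the change at *Serp2* was not called (adjusted p = 0.118). The changes at *Ednrb* and *Ifitm1* were lost without any of 7 and any of 5 single libraries. These loci were named after their values were seen.

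Each list of markers of other cells had 1 called locus in *Hivep3*-/- cells: 1 of 3 double positive, 1 of 4 B and plasma cell and 1 of 3 myeloid loci. Of all 15303 loci, 14.6% were called in these cells. Of 6 markers of double positive thymocytes, 3 have regions among those analysed here, and *Rag2*, a recombination gene with 1 region, was higher in *Hivep3*-/- iNKT2 (3.35 and 3.23) than iNKT17 cells (1.66 and 1.35), with a C57BL/6 difference of 0.19 and a change that was not called (adjusted p = 0.189). The summed linear level of this list was 388–399 in *Hivep3*-/- iNKT2 and 324–332 in *Hivep3*-/- iNKT17 libraries, against 376–386 and 329–337 in C57BL/6 libraries. Of 6 B and plasma cell markers, 4 have regions and only *Pax5* was called, higher in iNKT17 cells by -0.67, a call lost without *Hivep3*-/- iNKT2 replicate 1 (-0.43), and the summed level was 488–497 in *Hivep3*-/- iNKT2 and 410–430 in *Hivep3*-/- iNKT17 libraries. Of 5 myeloid markers, 3 have regions and only *Lyz2* was called, higher in iNKT2 cells by 1.39, with sums of 313–315 and 260–283. The part of such cells in the subset contrast was not tested. Of 14 genes of the T cell receptor complex and its proximal signalling, *Cd5* (0.82 and 1.09) and *Cd2* (0.81 and 1.11) were higher in iNKT2 cells of both genotypes, and the other 12 were not called in either. Among 8 measured transcripts that the study names for loss of *Hivep3*, the miRNA processing gene *Drosha* differed by 0.83 in *Hivep3*-/- and 0.58 in C57BL/6 cells with a change that was not called. *Klra1*, an NK cell receptor gene, differed by 0.81 and 1.99 and *Cd52* by 0.30 and 0.61, also without a called change, and the *Hivep3*-/- call of *Klra1* was lost without iNKT17 replicate 2 (0.58). The *Hivep3* locus itself kept an iNKT2 excess, 0.68 in *Hivep3*-/- and 0.87 in C57BL/6 cells, and *Hivep1* an iNKT17 excess, -0.66 and -0.75, which was not called without *Hivep3*-/- iNKT2 replicate 1 (-0.57).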

How the data were processed

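Open chromatin of sorted thymic iNKT cells was measured by ATAC-seq in 12 libraries, 2 for each subset and genotype. Per the study's methods, the authors trimmed reads with Trimmomatic (version 0.39 in the submitters' processing notes), mapped them to mm10, called peaks with the ENCODE pipeline, merged them with chromVAR into 500-bp regions, counted insertions and normalized with voom. The deposited table holds log2 values and no counts, so read depth is unknown and the number of libraries limits the precision. The sums of the linear values were nearly equal in all libraries (1915051–1919037), and the upper quantiles of their values nearly coincide, as a quantile normalization would leave them. The methods do not name that step, and if it was run, a level is relative to the distribution shared by the libraries. The 8 libraries of iNKT2 and iNKT17 cells took their groups from the sample labels.

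All 12 libraries were fitted together in limma 3.58.1 (R 4.3.3) with a variance trend, as the log2 values allow no count test. Regions needed a linear mean of at least 5 in a compared group, p-values were adjusted by Benjamini-Hochberg, and calls needed an adjusted p under 0.1 with 3-fold for regions or 1.5-fold for loci. Locus values average linear levels over a gene and 10 kb on either side. Every adjusted p in the text comes from limma. In simulated data with log2 changes of 3, 398 of 400 changed regions were recovered in the *Hivep3*-/- contrast with 5 false calls, and 193 of 200 in the change between genotypes with 7 false calls. The changed regions had a geometric mean over all libraries above 5 on the linear scale, and the noise was normal and independent. The simulation therefore does not cover calls at low values or changes near the 3-fold limit. With 2 libraries a group, an exact permutation test of a single value cannot go below 0.333 (two-sided), so none is given.

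The main fit did not pair libraries. Libraries with the same replicate number were taken as 1 pool within a genotype only in the alternative with the replicate number as a block. Their replicate differences correlated between iNKT2 and iNKT17 cells (r = 0.141 in *Hivep3*-/- and 0.185 in C57BL/6 mice, across regions), but also across genotypes (0.160 and 0.143), where no pool is shared.

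The members and gene lists were chosen with earlier results of these data known. Genes named were every list gene, by its locus and its region with the largest mean absolute difference; the 10 largest *Hivep3*-/- regions in each direction and the 10 most narrowed and widened regions with a low-group library above its lowest value; the 10 genes a side with most kept regions; and the 10 most narrowed and widened loci. The regions at *Il10ra*, *Slc38a8*, *Fgl2*, *Serpinb1b* and *Hivep3*, the *Satb1* intron region and the downstream *Il17a* region were picked after their values were seen. Alternatives were other limits, pseudocounts of 1 and 5, a renewed quantile normalization, no variance trend, the replicate number as a block, other locus definitions and leaving out each library. Some items are not reported here.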

Additional observations from a re-analysis of the deposited data

Results flagged for a closer look

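The results given here are those whose iNKT2 minus iNKT17 difference differed between the genotypes by the test of that change. They comprise 617 regions and 118 gene loci in all. Among the list genes these are the loci of *Plac8* (-1.55), *Il17a* (-0.79), *Blk* (-0.96), *Tbx21* (-0.59) and *Cxcr3* (-0.98).

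The 4 largest narrowed regions were a chromosome 6 intron region at 84226854 (change -8.32), a region nearest to *Eps8l3* (-6.26), a *Nck2* intron region (-6.04) and an intergenic region on chromosome 17 at 74865791 (-6.01). In the chromosome 17 region the C57BL/6 iNKT2 libraries had 4.53 and 4.35 and the other 6 libraries -2.58 to -0.78. In the chromosome 6 region the C57BL/6 iNKT2 libraries had 4.01 and 3.87, and the *Hivep3*-/- iNKT2 libraries 0.51 and -4.05. These 2 regions were called under all 13 alternatives. The changes near *Eps8l3* (-6.53 to -5.17) and in *Nck2* (-6.86 to -4.10) were each lost without any of 6 single libraries, and with a pseudocount of 5. The 4 largest widened regions lay in *Gcnt2* (-3.61), *Ccdc126* (3.59), *Cdh10* (-3.56) and *Erich6* (-3.32). None of the 10 widened regions examined was called under every alternative. The *Ccdc126* change was lost without any of 6 single libraries (3.37 to 3.81), with a pseudocount of 5 and with no variance trend. The *Gcnt2* change was lost without C57BL/6 iNKT2 replicate 2 or iNKT17 replicate 1 (-3.42 to -2.62). A pseudocount of 1 or 5 also ended it, as it did the *Cdh10* change (*Cdh10* -0.78 and -0.02). The *Erich6* change was lost with a pseudocount of 5.

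Among loci of at least 2 regions, the largest narrowed were *Hrh4* (-1.99), *Slc38a8* (-1.91), *Ednrb* (-1.82) and *Il10ra* (-1.60), and the largest widened were *Erich6* (-2.49), *Serpinb1b* (-2.28), *Plch1* (1.58) and *Fgl2* (-1.50). The changes of *Hrh4*, *Ednrb*, *Erich6* and *Plch1* were each lost without any of 7 single libraries.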

How the results depend on the processing

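Of 94 values recomputed for the counts, 68 stayed within 1.5 times of the reported one. With a linear mean of at least 10, 403 changed and 4364 kept regions were found. With a pseudocount of 5 there were 2924 *Hivep3*-/-, 3276 C57BL/6, 32 changed and 2194 kept regions, and at 2-fold 15184, 15392, 1317 and 11049. At an adjusted p under 0.05, 364 regions changed, and 50 among regions with a mean of at least 5 in all of the 4 groups, an alternative chosen after seeing the data. For loci, the nearest start gave 179 changes, and means of log2 values gave 3925 *Hivep3*-/-, 3953 C57BL/6 and 179 changed loci. The replicate block raised the changed loci from 118 to 269 and moved no other count by over 1.5 times.

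Leaving out single libraries gave 8985–9322 *Hivep3*-/-, 9441–9682 C57BL/6, 302–831 changed and 6631–6900 kept regions, and 2183–2329, 2115–2180 and 14–94 loci. Where a library is left out, the lone library of its group is assumed to vary like the others. Of 59 called *Hivep3*-/- loci of list genes, 34 were called under every alternative, and of 27 locus changes 3 were. Directions turned for *Aqp3* (0.13), *Hrh4* (0.01) and *Erich6* (0.19) with 50 kb, for *Rad50* (-0.11) and 4930447A16Rik (0.16) by nearest start, and for a *Sox13* intron region (0.20) with a pseudocount of 5. The causes were not tested.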
